A study of Mus musculus with 18 samples.

Results

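Slc4a1, Klf1, Tfrc and Bcl2l1 are genes that erythroblasts use as they mature into red blood cells, and their loci were described here through the chromatin loops called around them. Klf1 encodes an erythroid transcription factor, Bcl2l1 the survival protein Bcl-xL, Tfrc the transferrin receptor that takes up iron, and Slc4a1 the band 3 anion exchanger of the red cell membrane. A loop belonged to a locus when at least 1 of its anchors overlapped a window placed around the gene: 102120000 to 102320000 on chromosome 11 for Slc4a1, 87380000 to 87480000 on chromosome 8 for Klf1, 32560000 to 32680000 on chromosome 16 for Tfrc and 152560000 to 152700000 on chromosome 2 for Bcl2l1. This rule gave 23 of the 20926 loops in the list: 5 at Slc4a1, 5 at Klf1, 6 at Tfrc and 7 at Bcl2l1.

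The loops come from Micro-C, in which nuclease-cut chromatin is ligated so that sequenced pairs report which positions of the genome lie close together. All 18 samples were of G1E-ER4 cells, a mouse erythroblast line with a hormone-controlled GATA1, in a subline whose LDB1 protein carries an auxin-inducible degron (AID). The untreated group and the group given auxin for 4 h had 9 samples each, and the degron was present in both. A loop list and a list of 13483 domains were deposited, with coordinates only, and which samples they were made from is not stated. No value belongs to a sample or a treatment, so the effect of auxin at these genes was not analysed here, no value has a replicate error, and the read depth behind each loop is unknown. The promoter positions of the 4 genes in the build of the loops, mm9, were not used either, so which anchors hold a promoter was not measured.

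LDB1 binds no DNA itself. In erythroid cells it joins GATA1, TAL1 and LMO2 into a complex that sits on GATA words, often beside E-boxes, and LDB1 molecules that bind each other can bring such distant sites together. Klf1 protein in turn binds CACCC boxes. The 250 bases before the transcription start are shown for Klf1 (chr8:84901732-84901981) and Tfrc (chr16:32608646-32608895). They are from RefSeq on the plus strand of GRCm38.p6, where both genes lie. Those of Bcl2l1 were searched for the same words but are not shown. Capitals mark a GATA word or a CACCC box on either strand. These positions are in a later build than the loops and cannot be laid over them.
Klf1: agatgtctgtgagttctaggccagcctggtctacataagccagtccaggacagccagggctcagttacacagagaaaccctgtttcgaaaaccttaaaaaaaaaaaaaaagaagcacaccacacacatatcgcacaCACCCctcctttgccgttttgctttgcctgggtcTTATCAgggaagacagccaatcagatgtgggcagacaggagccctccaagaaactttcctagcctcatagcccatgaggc
Tfrc: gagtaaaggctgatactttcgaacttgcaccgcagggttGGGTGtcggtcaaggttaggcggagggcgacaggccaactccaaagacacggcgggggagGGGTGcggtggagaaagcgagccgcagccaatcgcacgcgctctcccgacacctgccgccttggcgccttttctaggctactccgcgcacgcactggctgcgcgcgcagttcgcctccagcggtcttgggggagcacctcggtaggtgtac
The Klf1 stretch held TGATAA 1 time, on the opposite strand, a word found in 7.94% of the 32851 promoter entries. It also held CACCC 1 time. The other GATA words searched were AGATAA, found in 9.99% of entries, AGATAG, found in 7.71%, and TGATAG, found in 6.35%. At least 1 of the 4 words was found in 26.5% of all entries, and CACCC in 52.0%. Tfrc had 2 entries, of which that with the outermost start is shown. It held CACCC 2 times, both on the opposite strand, and the other entry held it 3 times; none of the GATA words was in either. For Bcl2l1, 1 of its 3 entries held a GATA word, AGATAA. The E-box CANNTG was found 1 time in the Klf1 stretch, 1 time in the Tfrc stretch shown, 0 times in the other Tfrc entry and in 66.2% of all entries. A match is a word in the sequence and no evidence of binding. Slc4a1 had no entry.

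At Klf1, 4 of the 5 loops ended in a single anchor region, at 87422001 to 87437500 near the centre of the window, and all 4 ran from it to lower coordinates. An anchor region is a stretch of anchors that overlap by at least 1 bp, each anchor being 10000 bp wide. The nearest partner, 87392001 to 87402000, lay 30 kb away between midpoints, and this was the only loop with both anchors in the window. The next partner, 87357501 to 87376000, was reached by 2 loops of 56 and 65 kb whose anchors overlap at both ends, so they may be 1 contact listed 2 times. The farthest partner, 87220001 to 87238000, lay 200 kb away. The fifth loop did not touch the shared region: it passed over it, joining 87342501 to 87352500 with 87477501 to 87487500 over 135 kb. The list thus placed 3 partner regions on the same side of the shared region and none on the other. Below, a region or anchor with a gene's name lies in that gene's window, and whether it touches the gene was not measured.

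Partners of the Klf1 loops were themselves joined to other places. The partner 200 kb away had 4 loops in all, to 86517501 to 86530000 over 700 kb, to 87256001 to 87267500 over 28 kb, to 87332001 to 87352500 over 104 kb and to the Klf1 region. The region at 87332001 to 87352500, where the loop passing over the Klf1 anchor begins, had 6 loops, 5 of them to lower coordinates. Through such links the 5 loops at Klf1 belonged to a network of 42 anchor regions and 50 loops that stretched over 1897.5 kb. Of the 3826 networks in the list, 0.392% had as many regions or more. In this share, and in those for the other windows below, each network counts once whatever its size. A large network holds more loops than a small one, and the share of loops in networks as large was not computed. In the gene order of GRCm38.p6, Klf1 stands between Gm39213, Gcdh and Syce2 on its lower side and Dnase2a, Mast1 and Gm38426 on its upper side. Gcdh encodes a mitochondrial enzyme of amino acid breakdown and Dnase2a a lysosomal nuclease known for digesting the nuclei that red cell precursors expel.

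At Bcl2l1, 5 of the 7 loops met in the anchor region 152652001 to 152662500, and all 5 ran to lower coordinates. Their partners lay 64, 90, 134, 160 and 215 kb away. The partners at 64 and 90 kb, 152588001 to 152598000 and 152562001 to 152574000, were inside the window, and the others were below it. The other two loops joined 152562001 to 152574000 with 152518001 to 152528000 over 46 kb and with 152612501 to 152622500 over 50 kb. Of the 20368 anchor regions in the list, 14.6% had 4 or more loops, as the shared region at Klf1 did, and 7.76% had 5 or more, as that at Bcl2l1 did. These shares count every region once, while each shared region was the one with the most loops in its window. Among the 2967 regions with 4 or more loops, all loops ran to the same side in 45.6%, so loops to a single side, as at Klf1 and Bcl2l1, are common in the list.

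The partner 215 kb from the Bcl2l1 anchor region, at 152432501 to 152448000, was also one-sided but faced the other way. It had 5 loops, all to higher coordinates, and the longest passed over the whole Bcl2l1 window to 152960001 to 152977500, a span of 525 kb. Another of them ended at 152752501 to 152762500, 315 kb away and beyond the upper end of the window. The 7 loops at Bcl2l1 belonged to a network of 27 regions and 33 loops over 1330.0 kb, and 2.04% of networks were as large. The 3 nearest table entries on each side of Bcl2l1 were Cox4i2, Gm32057 and Gm14162, and Gm32211, Tpx2 and Mir5622. Cox4i2 encodes a subunit of cytochrome c oxidase, and Tpx2 a protein of the mitotic spindle.

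At Tfrc, the region that met the most loops of the window lay outside the window. At Klf1 a region outside the window, 87332001 to 87352500, also had more loops in all than the shared region, 6 against 4. Only 1 of those 6 was a loop of the Klf1 window. The region below Tfrc spanned 32490001 to 32514000, ended 46 kb below the window, and sent 4 loops into it. These reached 32604001 to 32620000 with 2 overlapping loops of 100 and 106 kb, 32627501 to 32644000 with a loop of 130 kb, and 32672501 to 32688000 with a loop of 176 kb. The remaining 2 loops, of 44 and 45 kb, joined 32627501 to 32644000 with 32672501 to 32688000 and overlapped each other at both ends. Counted as contacts, the 6 Tfrc loops were therefore 4. In the whole list, 7.14% of loops overlapped another at both anchors, and at Tfrc 4 of 6 did.

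The shared region below Tfrc had 10 loops to 9 partner regions, 5 in each direction. In the list, 0.324% of anchor regions had 10 or more loops. That share counts each region once, whereas this region was found by following loops from the window. Loops lead more often to regions that have many, and the share of loops touching such regions was not computed. From the shared region, the loops to lower coordinates were of 70, 125, 190, 230 and 380 kb. The fifth loop to higher coordinates, also of 190 kb, ran over the Tfrc window to 32690001 to 32702500. The network that held the Tfrc loops had 23 regions and 32 loops over 1232.5 kb, and 3.03% of networks were as large. In the gene table Tfrc lies between Gm5405, Zdhhc19 and Slc51a on its lower side and Tnk2, Tnk2os and Gm34766 on its upper side. Zdhhc19 encodes an enzyme that attaches palmitate to proteins, and Tnk2 a tyrosine kinase.

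At Slc4a1, 4 of the 5 loops met in the region 102167501 to 102184000, which lay in the lower part of the window, but here they ran both ways. To higher coordinates it was joined with 102264001 to 102274000 over 90 kb, with 102287501 to 102297500 over 120 kb and with 102410001 to 102420000 over 240 kb, the last of these 90 kb above the window. To lower coordinates it was joined with 102150001 to 102164000 over 20 kb. The fifth loop joined that lower region with the same distant place at 102410001 to 102420000, over 260 kb. The middle of the window, from 102184001 to 102264000, held no anchor over 80 kb. The loops were assigned by window, and whether any has an anchor at the Slc4a1 gene itself was not measured. Anchor regions covered 25.2% of the Slc4a1 window, against 28.0% at Klf1, 30.4% at Bcl2l1 and 33.3% at Tfrc.

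With only overlapping anchors merged, Slc4a1 differed from the other windows in how far its links went. Its 5 loops and 5 anchor regions formed a network of their own over 270 kb, and 31.3% of all networks had as many regions or more. Networks under wider merging were not examined. The 5 loops are among the 1574 of chromosome 11. The nearest table entries were Ubtf, Gm33851 and Atxn7l3 on the lower side, and Gm34253, Bloodlinc and Rundc3a on the upper side. Ubtf encodes a factor for transcription of ribosomal RNA genes, and Bloodlinc a long noncoding RNA described in red cell precursors.

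**Figure D1:**
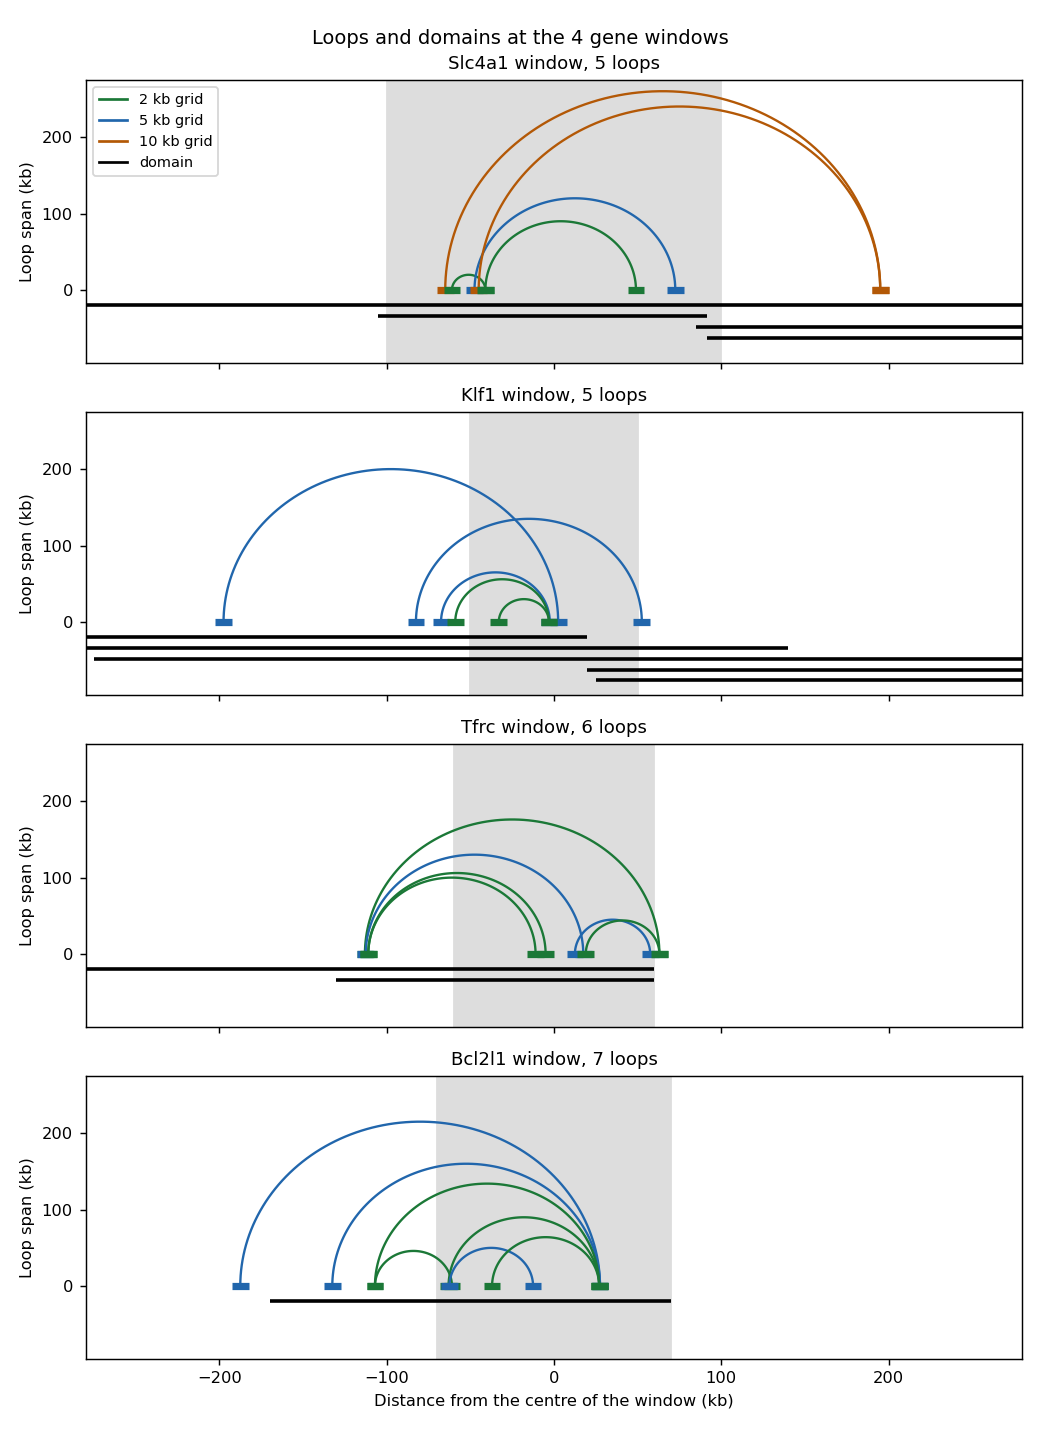
Each arc joins the anchor midpoints of a loop at Slc4a1, Klf1, Tfrc or Bcl2l1, drawn with its height equal to its span in kb against the distance from the centre of the window in kb; thick marks at 0 are the anchors, grey is the window and black bars are domains, drawn up to the edge of the panel. Arcs gather in a single anchor region at Slc4a1 (4 of 5 loops), Klf1 (4 of 5) and Bcl2l1 (5 of 7). At Tfrc, 4 of 6 start from a region below the window.

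**Figure D2:**
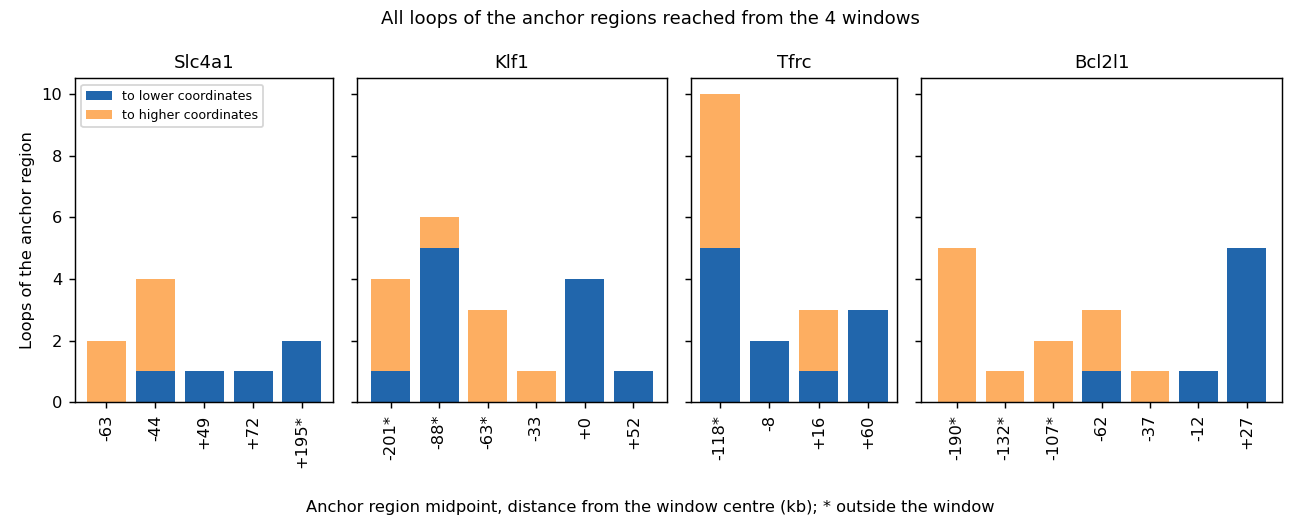
Bars give all loops of each anchor region that the loops at the 4 windows touch, split by direction, with the distance of the region from the window centre in kb under each bar and a star for regions outside the window. The region with 10 loops below Tfrc stands above all others shown, and the regions with 5 loops at Bcl2l1 each face 1 way.

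Loops at each of the 4 genes had a shorter median span than the whole list. The median span was 65 kb at Klf1, 90 kb at Bcl2l1, 103 kb at Tfrc and 120 kb at Slc4a1, with ranges of 30 to 200, 46 to 215, 44 to 176 and 20 to 260 kb that overlap each other. With the 2 overlapping Klf1 loops counted once, the Klf1 median was 100 kb. Over all 23 loops the median was 100 kb (quartiles 53 and 147.5 kb), and over the whole list it was 175 kb (quartiles 92 and 330 kb). There were 17 loops of the 23 with a span under 150 kb, beside 42.8% of the whole list. Anchors in the list lie on coordinate grids of 2, 5 or 10 kb, and finer grids hold shorter loops. The finest grid, of 2 kb, held 12 of the 23 loops, beside 20.6% of the whole list. Another 9 had coordinates in steps of 5 kb, and the coarsest grid held 2. Within the 2 kb grid the medians were 77 kb at the 4 genes and 78 kb in the whole list, and within the 5 kb grid they were 130 and 195 kb. The 2 loops with coordinates in steps of 10 kb were those of 240 and 260 kb at Slc4a1. No test was made of the difference in span, since the loops at a gene share anchors.

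**Figure D3:**
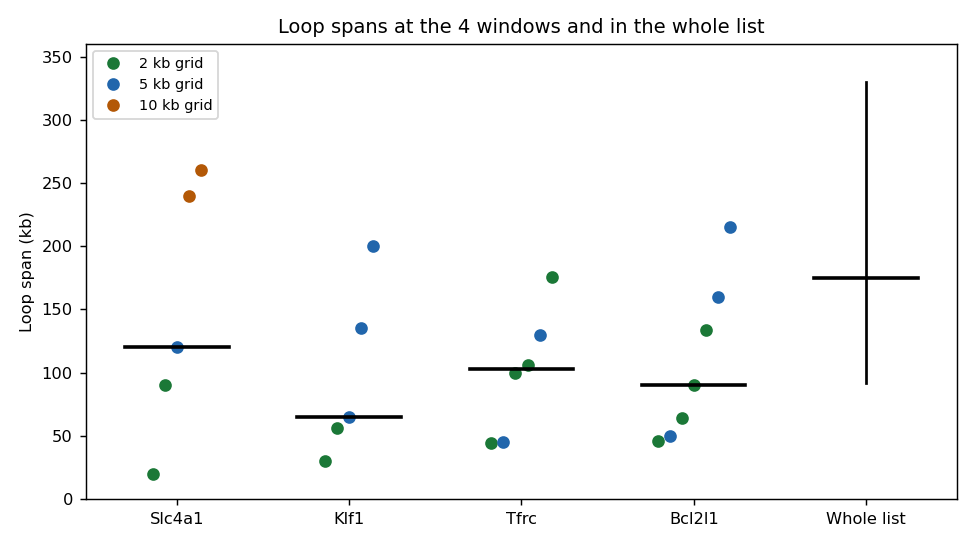
Points are the spans in kb of the loops at each gene, coloured by coordinate grid, with the median as a bar; for the whole list the bar is the median of 175 kb and the line runs between the quartiles. All 4 medians, from 65 to 120 kb, lie below that of the whole list.

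All 23 loops overlapped an anchor of another loop, beside 91.0% of the whole list. At 3 of the 4 genes the sharing closed into a triangle, meaning 3 anchor regions of which each is joined with both others by a loop. At Bcl2l1 the corners were 152518001 to 152528000, 152562001 to 152574000 and 152652001 to 152662500, joined by loops of 46, 90 and 134 kb. At Tfrc they were the region below the window, 32627501 to 32644000 and 32672501 to 32688000, joined by 4 loops. At Slc4a1 they were 102150001 to 102164000, 102167501 to 102184000 and 102410001 to 102420000. The loops at Klf1 closed no triangle, although their network held 8 elsewhere. In all, 10 of the 23 loops were part of a triangle, beside 32.7% of the whole list.

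A triangle among the loops of a window was found in 4.67% of all windows of 140 kb, the width used for Bcl2l1, and in 20% (107) of the 534 such windows with exactly 7 loops. For Tfrc the corresponding shares were 3.50% of windows of 120 kb and 9.25% of the 757 with 6 loops. For Slc4a1 they were 8.32% of windows of 200 kb and 8.35% of the 611 with 5 loops, and for Klf1 2.30% of windows of 100 kb and 6.66% of the 1081 with 5 loops. A triangle among the loops at Bcl2l1, and at Tfrc, was also there when anchors within 10 kb of each other were merged. At Tfrc this merging joined 32604001 to 32620000 with 32627501 to 32644000, so it was a coarser triangle. All 6 Tfrc loops were then in a triangle, against 4 before. At Slc4a1 the lower corners lie so close together that this merging joined them, and 0 of its loops were then in a triangle. In the same setting 3 of the 5 loops at Klf1 and 14 of all 23 loops belonged to triangles, beside 50.5% of the whole list. A list made from many cells does not show whether the corners of a triangle meet in the same cell. Triangles, the 150 kb limit and the size classes of domains were chosen after the loops had been seen.

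The number of loops at each gene was above the median of windows of the same width, which was 1 loop per 200 kb and 0 loops at the other widths. For Bcl2l1, 11.3% of the 18359 windows of 140 kb that tile the chromosomes had 7 or more loops. For Tfrc, 12.6% of 21430 windows of 120 kb had 6 or more, and for Klf1, 13.9% of 25718 windows of 100 kb had 5 or more. For Slc4a1, 26.7% of 12853 windows of 200 kb had 5 or more, and the highest count at that width was 36. Between 45.8% and 56.5% of the tiled windows, depending on width, held no loop at all, and the tiled windows were not matched for gene content. With loops that overlap at both anchors counted once, the share for Tfrc was 21.6%. The counts also depend on where a window ends: widened by 20 kb on each side, the Klf1 window had 10 loops and the Tfrc window 13.

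**Figure D4:**
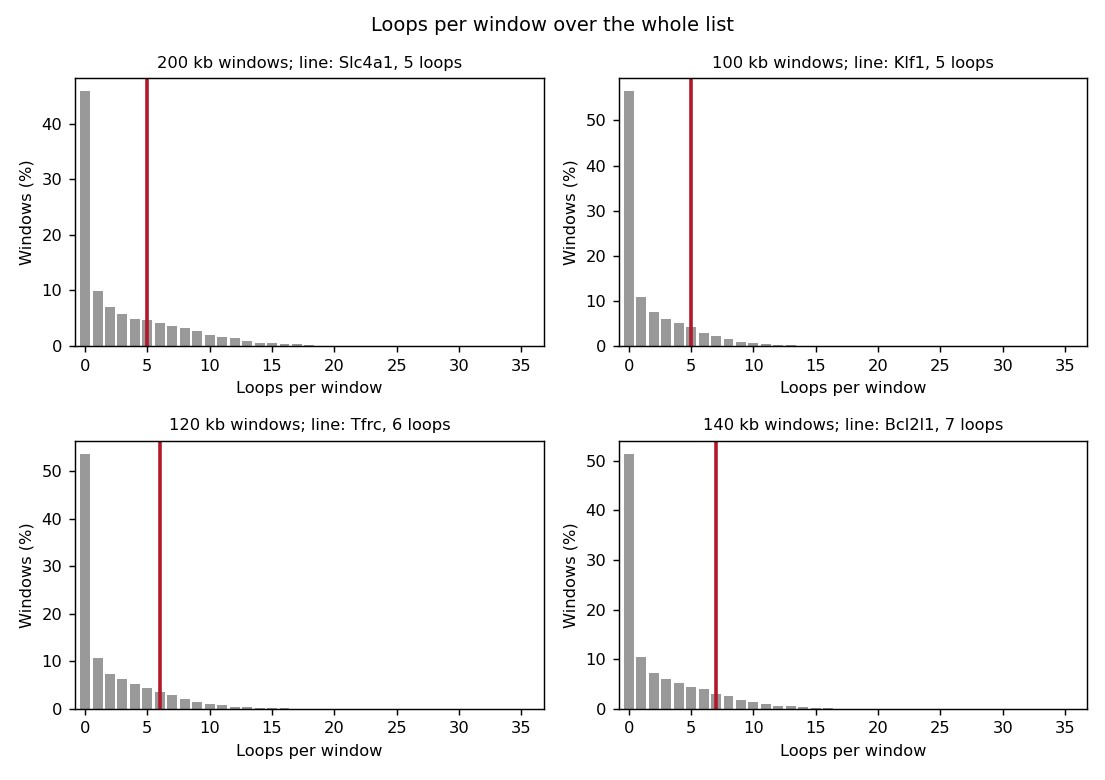
Grey bars give the percentage of all tiled windows of equal width by their number of loops, and the red line marks the number at the named gene. The lines for Bcl2l1, Tfrc and Klf1 lie where 11.3%, 12.6% and 13.9% of windows have as many loops or more, and that for Slc4a1 where 26.7% do.

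The domains around the genes were arranged differently. A domain is a stretch of chromosome that contacts itself in preference to its surroundings, and domains can be nested or overlap. A single domain, 152460001 to 152700000, overlapped the Bcl2l1 window and covered it. The end of this domain is also the upper edge of the window, so a domain beginning there would not be counted. The domain held 6 of the 7 loops and no others. Among the 2875 domains within 20% of its size of 240 kb, 6.30% held 6 or more loops, and the median was 1 loop. Here and below, domains were compared by size only, with no matching for gene content, and those described were chosen because they overlap a window. The loop outside the Bcl2l1 domain was that of 215 kb, whose lower anchor began below the start of the domain. The shared Bcl2l1 anchor region was not at an end of the domain: the midpoints of its anchors lay 42.5 or 43 kb from the nearest boundary.

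Tfrc was covered by 2 nested domains with a common end, 31940001 to 32680000 and 32490001 to 32680000, and this end is also the upper edge of the window. They held 15 and 4 loops, numbers reached by 8.40% and 12.1% of domains within 20% of their size. All 6 loops had an anchor midpoint within 20 kb of a boundary, beside 48.2% of the whole list and 1 loop each at Klf1, Bcl2l1 and Slc4a1. This contrast depends on the distance: 3 of the Tfrc loops lay 17.5 to 19 kb from the nearest boundary and 3 of the Klf1 loops 22.5 to 23 kb. Within 10 kb there were 3 loops at Tfrc and 0 at Klf1, and within 40 kb all 5 at Klf1. The loop of 176 kb joined both ends of the inner domain, with its anchors 17 and 0.5 kb from them. Such a corner loop made up 3.73% of the whole list, and it was the only corner loop among the 23. The midpoint of its upper anchor lay just past the domain end, as did that of the loop of 44 kb, so that these 2 loops were in no single domain while the other 4 were in both.

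The Klf1 window was cut by domain starts and ends in its upper part. Of 5 overlapping domains, 1 ended and another began at 87450000, and a further domain began at 87455000. The 4 loops of the shared Klf1 region stayed below these boundaries, and the midpoints of their anchors there lay 17.5 to 23 kb from the nearest. Only the loop of 135 kb crossed both. All 5 loops lay in the domain from 87145001 to 87570000, which held 13 loops in all. This number was reached by 2.98% of the 2822 domains within 20% of that domain's size, whose median was 1 loop. For the other 4 domains at Klf1 this share was 6.76%, 7.99%, 11.1% and 20.9%, the 7.99% being that of the largest, 87155001 to 89105000, with 27 loops.

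At Slc4a1, boundaries at 102305000 and 102311666 lay in the upper part of the window, and 4 domains overlapped it. The loops of 20, 90 and 120 kb lay in the domain from 102115001 to 102311666, which held these 3 loops and no others. The loops of 240 and 260 kb crossed both boundaries and were held only by the larger domain from 101485001 to 102555000. Among domains within 20% of their size, 22.3% held as many loops as the first of these domains and 5.87% as many as the second, which held 23. The domains that began at the 2 boundaries, 102305001 to 102925000 and 102311667 to 102545000, held none of the 5 loops, and their own counts of 9 and 3 loops were reached by 16.3% and 25.3% of domains of like size. Over the 4 genes, 20 of 23 loops had both anchor midpoints inside 1 domain, beside 86.5% of the whole list.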

How the data were processed

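Micro-C was run on 18 samples (9 untreated, 9 with auxin for 4 h), and the authors deposited 1 loop list and 1 domain list. The deposited values are coordinates in bp, with no score and no column for any sample. Chromatin was cut with MNase, ligated and size-selected for dinucleosomes, per the labels' protocols, and the build is mm9, per the submitters' processing notes. The aligner, callers, thresholds and the samples behind each list are not given in the sources used here. Contacts below the callers' thresholds are absent from the lists.

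Starts were read as counted from 0 and are printed counted from 1. Span is the distance between anchor midpoints. Overlapping anchors (1 bp or more) were merged into regions, and regions linked by loops formed networks. A boundary is any domain start or end, near means 20 kb, and a loop is inside a domain when both midpoints are. Equal-width windows were tiled from coordinate 0 within the span of the lists. No p-value was computed, because the lists have no replicates. Functions were tested on a small made-up list. Neighbours are the 3 nearest entries on each side in the RefSeq table; all loops are given, since no window had over 8. Motifs were searched on both strands of the 250 bases before each start; CANNTG reads the same on both. The members and lists were chosen with earlier results of these data known. Python 3.11.15, numpy 2.4.6, pandas 2.3.3 and matplotlib 3.10.9 were used.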

Additional observations from a re-analysis of the deposited data

How the results depend on the processing

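Of 63 alternatives, 38 left the value within 1.5 times, or a percentage of windows within its 95% Wilson interval, and 25 did not. These criteria differ in strictness, and neighbouring windows can share loops, which the interval ignores. The counts of 38 and 25 are therefore a tally and no measure of how stable the results are. Without the 2 kb grid, 3 loops were left at Slc4a1, 3 at Klf1, 2 at Tfrc and 3 at Bcl2l1, and without the 10 kb grid 3 at Slc4a1. Windows widened by 20 kb on each side held 10 loops at Klf1 and 13 at Tfrc. With each contact counted once, the median span at Klf1 was 100 kb, and windows with as many loops made up 18.5% for Klf1, 21.6% for Tfrc and 10.5% for Bcl2l1. Loops near a boundary numbered 0 at Slc4a1, 0 at Klf1, 3 at Tfrc and 0 at Bcl2l1 for a distance of 10 kb, and 3 at Slc4a1, 5 at Klf1 and 2 at Bcl2l1 for 40 kb. With only domains that hold no other, 3 Slc4a1 loops were inside 1 domain, and 2 domains overlapped Slc4a1, 2 Klf1 and 1 Tfrc. With only domains inside no other, 2 overlapped Slc4a1, 3 Klf1 and 1 Tfrc. These alternatives drop or add loops, domains or distance by construction. The 3 triangle settings, chosen after the data were seen, gave 10 of 23 loops in a triangle without merging, 14 of 23 (whole list 50.5%) with anchors within 10 kb merged and 9 of 20 (whole list 31.8%) with contacts counted once.

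No paired analysis was possible because neither list has a column for any sample, although both groups carry replicate numbers. The effect of auxin, with and without single replicates, was not computed on this account.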
